A study of Mus musculus with 2 samples.

Results

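The loops described here are the strongest chromatin loops of the mouse uterus that were found at the same place in estrus and in diestrus. They were chosen by measured values: an autosomal loop was taken where both loop lists held it at identical 10 kb bins, where it spanned at most 2 Mb between the starts of its anchors, and where both libraries gave it at least 50 contacts and at least 8 times the contacts expected from its surroundings. This selected 1109 loops, called strong kept loops, of 34131 loop positions in either list. They made up 7.19% (95% interval 6.79 to 7.61) of the 15427 autosomal loops up to 2 Mb at identical bins in both lists, called same-position loops, and the other 14318 of these serve for comparison. Because both strengths chose the members, their strengths and contacts are a description and carry no test.

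Uteri came from untreated CD-1 mice, an outbred stock, aged 2 months. Estrus, the stage that follows the estrogen peak, was measured in 1 Hi-C library, and diestrus, when progesterone acts on the uterus, in 1 other library. Hi-C ligates pieces of DNA that touch inside the nucleus and counts the resulting pairs, here with a kit from Arima. Whole uterus was used, so the cell types are mixed, and the sources used here do not say whether several animals were pooled in a library. With 1 library a stage, no difference between stages can be tested against the spread between animals. The estrus list held 24131 loops with 4153485 contacts and the diestrus list held 26240 loops with 4533525 contacts.

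A loop call marks 2 anchors that touch more often than the chromatin around them does. Such loops are thought to form when the cohesin ring extrudes DNA until it meets bound CTCF at each end, and they can bring a promoter to a distant enhancer or frame a domain within which genes and enhancers find each other. In the uterus, genes that answer estrogen and progesterone and the Hox genes that pattern the tract are known to use distant regulatory elements.

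The promoters printed here are examples from genes at which strong kept loops begin or end. They are shown because the results below include which way genes at anchors are read relative to the loop. Each runs 5′ to 3′ along the gene, from 250 bases before the RefSeq start to 30 bases after it, with the transcribed bases in capitals, from the RefSeq promoter table of GRCm38.p6. Cebpb (chr2:167688665-167688944, plus strand) encodes a transcription factor that mouse decidual cells need. Greb1 (chr12:16800857-16801136, minus strand) is an estrogen-induced coregulator of the estrogen receptor. Lif (chr11:4257318-4257597, plus strand) encodes the cytokine that mouse implantation depends on. Wnt7a (chr6:91411324-91411603, minus strand) encodes a Wnt ligand of the uterine epithelium. Hoxa10 (chr6:52240825-52241104, minus strand) and Hoxa11 (chr6:52245781-52246060, minus strand) lie in the same anchor and pattern the uterus. Rgs16 (chr1:153740103-153740382, plus strand) encodes a regulator of G protein signalling, and of these 7 genes it alone is read out of its loop. The 7 do not give the share of inward starts, which follows below for all starts. Of genes named below but not printed, Mptx2, Mptx1, Aqp8, Sox4, Hoxd13, Zeb2 and Pdgfra are also read out of their loops.
Cebpb: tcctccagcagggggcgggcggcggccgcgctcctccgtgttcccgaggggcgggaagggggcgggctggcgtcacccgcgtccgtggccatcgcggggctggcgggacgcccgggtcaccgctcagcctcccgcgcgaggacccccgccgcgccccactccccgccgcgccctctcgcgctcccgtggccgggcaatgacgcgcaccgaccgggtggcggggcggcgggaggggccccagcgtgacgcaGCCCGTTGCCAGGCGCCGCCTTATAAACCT
Greb1: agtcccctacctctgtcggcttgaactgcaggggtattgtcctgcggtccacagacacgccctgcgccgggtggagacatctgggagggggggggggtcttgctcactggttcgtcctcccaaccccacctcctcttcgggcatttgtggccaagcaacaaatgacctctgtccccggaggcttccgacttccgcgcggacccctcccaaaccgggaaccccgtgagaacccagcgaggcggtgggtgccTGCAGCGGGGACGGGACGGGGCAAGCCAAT
Lif: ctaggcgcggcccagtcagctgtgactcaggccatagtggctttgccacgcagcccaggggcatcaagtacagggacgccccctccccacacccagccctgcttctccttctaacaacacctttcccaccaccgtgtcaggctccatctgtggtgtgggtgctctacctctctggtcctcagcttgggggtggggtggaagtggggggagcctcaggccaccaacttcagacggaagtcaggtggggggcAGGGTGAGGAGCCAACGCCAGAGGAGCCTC
Wnt7a: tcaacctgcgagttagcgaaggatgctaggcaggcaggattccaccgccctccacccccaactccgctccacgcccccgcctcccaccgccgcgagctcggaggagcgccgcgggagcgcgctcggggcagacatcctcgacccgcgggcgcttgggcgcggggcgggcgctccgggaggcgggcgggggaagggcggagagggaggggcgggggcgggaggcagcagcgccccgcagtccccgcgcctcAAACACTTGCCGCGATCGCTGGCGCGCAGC
Hoxa10: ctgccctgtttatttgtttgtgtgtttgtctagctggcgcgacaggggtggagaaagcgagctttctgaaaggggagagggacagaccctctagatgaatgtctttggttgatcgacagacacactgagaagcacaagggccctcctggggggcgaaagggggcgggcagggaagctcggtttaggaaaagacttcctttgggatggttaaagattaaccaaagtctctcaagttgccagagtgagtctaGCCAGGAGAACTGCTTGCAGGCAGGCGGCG
Hoxa11: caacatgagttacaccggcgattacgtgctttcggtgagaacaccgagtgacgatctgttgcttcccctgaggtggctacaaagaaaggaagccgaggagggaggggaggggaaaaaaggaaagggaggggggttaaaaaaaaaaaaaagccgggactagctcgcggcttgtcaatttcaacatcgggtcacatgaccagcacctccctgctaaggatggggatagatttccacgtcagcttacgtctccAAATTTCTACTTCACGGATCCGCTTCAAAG
Rgs16: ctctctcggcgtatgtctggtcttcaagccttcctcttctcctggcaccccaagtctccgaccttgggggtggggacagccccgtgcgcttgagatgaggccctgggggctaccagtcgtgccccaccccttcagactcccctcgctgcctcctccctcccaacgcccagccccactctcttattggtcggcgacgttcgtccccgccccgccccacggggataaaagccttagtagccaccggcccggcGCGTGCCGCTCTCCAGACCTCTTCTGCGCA

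The loops at Cebpb, Rgs16 and Greb1 had closely similar values in both libraries. The Cebpb loop (chr2:167680001-167900000) had 1524 contacts in estrus, with an exact Poisson interval of 1448 to 1602, and 1576 in diestrus, with an interval of 1499 to 1656. Its strength, the observed contacts over the donut expectation, was 18.7 in estrus and 18.4 in diestrus. Of the strong kept loops with a gene end in an anchor it had the most contacts. The loop from Rgs16 to the bin 190 kb upstream (chr1:153550001-153750000) had 1251 contacts in estrus and 1325 in diestrus, at strengths of 15.8 and 16.4. At Greb1 the loop (chr12:16710001-16810000) ran 90 kb from the promoter into the gene body, with 613 contacts in estrus and 612 in diestrus.

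Most strong loops of either library were found again in the other, there at any strength. Over loops of all strengths, chromosomes and lengths, the lists held 24131 in estrus and 26240 in diestrus, at 34131 distinct positions together. A smaller share of these lay at identical bins. Strong loops were also chosen by contacts, and the part of contacts in this was not tested. Of 1421 loops that passed the limits of contacts, strength and length in the estrus list, 1359 (95.6%, 94.4 to 96.6) lay at identical bins in the diestrus list, 59 had a diestrus loop only within 10 kb, and 3 had none that near. Of 1373 in the diestrus list, 1291 (94.0%, 92.6 to 95.2) lay at identical bins in estrus, 62 had an estrus loop only within 10 kb, and 20 had none. Another 239 same-position loops passed the strength limit in estrus alone and 170 in diestrus alone, with a median of 7.44 for the lower of their strengths, and a lowest of 3.92. The members just inside the limit were loops around Lgalsl (8.65 in estrus, 8.0002 in diestrus), Ell2 (8.0015 and 9.12) and from Ccn6 (8.01 and 8.04). Just outside it were loops at Qk (8.51 in estrus, 7.999 in diestrus), Btbd10 (8.81 and 7.999) and Riok2 (7.998 and 9.58). The limit therefore divides a continuous range of strengths, and 426 members had a lower strength under 9.

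Contacts and strength of the members were high by choice, and the values show how high. Strong kept loops had a median of 358 contacts in estrus (range 53 to 4201) and 376 in diestrus (range 50 to 2043), against 148.5 and 158 at the other same-position loops. Median strength was 9.97 in estrus and 9.87 in diestrus, against 3.69 and 3.64 at the others. Strength reached 10 in both libraries at 434 members, 15 at 38 and 20 at 4. The loop caller compares each peak with 4 local neighbourhoods, and against the row and the column through the peak the members stood out less: their median was 7.71 in estrus and 7.58 in diestrus against the horizontal one, and 7.71 and 7.61 against the vertical one. Only 179 members (16.1%) reached 8 against all 4 neighbourhoods in both libraries.

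**Figure D1:**
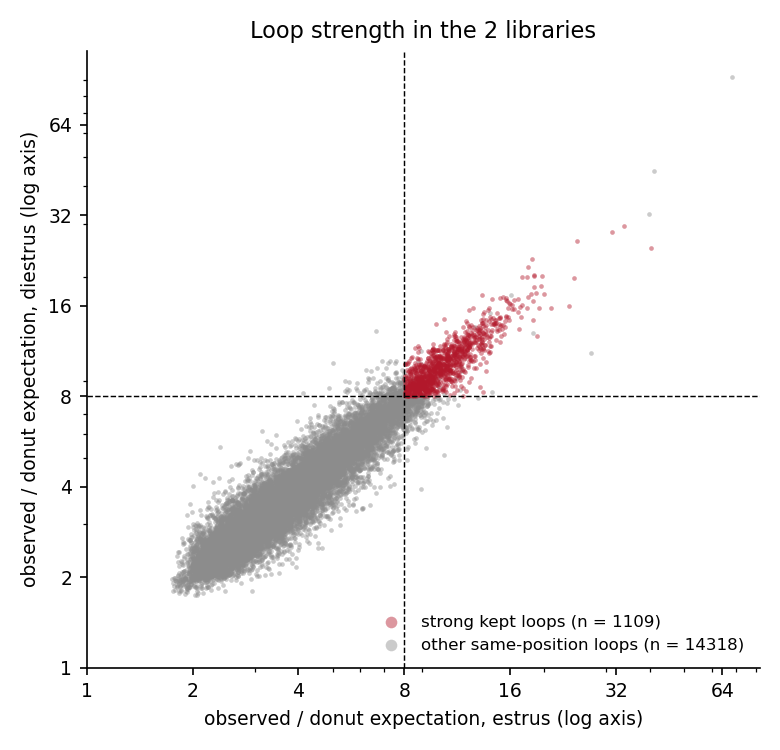
Each point is 1 same-position loop, with its strength (observed contacts over the donut expectation) in estrus on the x axis and in diestrus on the y axis, both on log axes, and dashed lines at 8. The 1109 strong kept loops fill the upper right corner by the choice of the limits, and the grey points in that corner have fewer than 50 contacts in a library.

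The shape of the peaks differed from that of the other loops in a measure the rule did not use. A strong kept loop was merged from a median of 9 enriched pixels in each library, against 3 at the other same-position loops. Its radius had a median of 17.4 kb in estrus and 17.3 kb in diestrus, against 7.45 kb in both libraries at the others. The centres of the merged pixels lay within 5 kb of each other in both directions between libraries at 1032 members (93.1%), against 82.7% of the others. Just 5 members (0.451%) rested on 1 pixel in both libraries, against 14.3% of the others. Pixel number moves with the number of contacts, and the part of depth in this was not tested.

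Strong kept loops were longer than the other same-position loops. Contacts and strength, which chose the members, depend on length, so the lengths are a description. Their length had a median of 320 kb (290 to 330), with quartiles of 190 and 570 kb and a range of 50 to 2000 kb, against a median of 220 kb (210 to 220) and quartiles of 110 and 430 kb at the others. In the shortest class, up to 100 kb, 49 same-position loops were members, or 1.47% of that class. The share was 7.25% (280 loops) from 110 to 200 kb, 8.66% (341 loops) from 210 to 400 kb, and 10.2% both from 410 to 800 kb (285 loops) and from 810 kb to 2 Mb (154 loops). Fewer than 10 expected contacts in either library stood behind 64 members (5.77%), against 4.88% of the others.

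**Figure D2:**
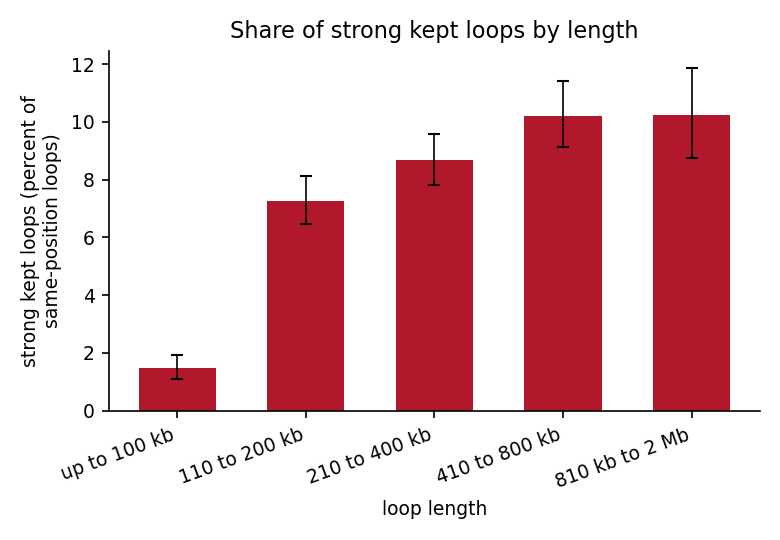
Bars give the percentage of same-position loops in each length class that were strong kept loops, with 95% Clopper-Pearson intervals. The share was 1.47% up to 100 kb and between 7.25% and 10.2% in the longer classes.

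The shortest members framed single genes. The loop from Gsto2 to Cfap58 (chr19:47880001-47940000) enclosed Itprip within 50 kb and had 893 contacts in estrus and 907 in diestrus. A loop of the same length around Cyp24a1 (chr2:170450001-170510000), which encodes the vitamin D 24-hydroxylase, had 820 contacts in estrus and 809 in diestrus. The other 3 shortest loops enclosed Aadacl4, Mmgt2 and, between Capn9 and Ttc13, a predicted gene.

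The longest member ran 2000 kb from Khdrbs3, which encodes an RNA-binding protein, with no whole protein-coding gene inside (chr15:68920001-70930000), and had 90 contacts in estrus and 78 in diestrus at strengths of 10.3 and 8.98. A loop of 1860 kb led to Epha4 (chr1:75650001-77520000), an ephrin receptor gene whose long regulatory neighbourhood is known from limb development, and had 236 contacts in estrus and 316 in diestrus at strengths of 11.0 and 11.8. It enclosed no whole gene, and neither did a loop of 1920 kb ending in Brinp1, while one of 1910 kb ending in Sema3d enclosed 4.

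By strength, the leading loop ran 1060 kb between the pentraxin genes Mptx2 and Mptx1 (chr1:173270001-174340000), around 25 genes that include the interferon-inducible DNA sensor gene Aim2. It had 199 contacts in estrus and 198 in diestrus, at strengths of 33.6 and 29.4 over 5.92 and 6.73 expected contacts. Second came a 700 kb loop around Fam174b and St8sia2 (chr7:73650001-74360000), with 481 contacts in estrus and 504 in diestrus at strengths of 31.2 and 28.1. Next was a loop between the ribonuclease genes Ang and Rnase4 and their relative Ang4 (chr14:51090001-51780000), with 90 contacts in estrus and 75 in diestrus over only 2.24 and 3.01 expected. The Mptx, Ifi and ribonuclease genes are families of similar copies, in which read pairs can be assigned to the wrong copy.

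The rest of the 10 strongest loops had few named genes inside. The loop around Egfem1 (chr3:29030001-29730000) had strengths of 24.8 in estrus and 26.3 in diestrus. Around Enc1 (chr13:97230001-97940000), which encodes an actin-binding protein, 942 contacts were counted in estrus and 1065 in diestrus, at strengths of 18.7 and 20.2. The remaining 5 enclosed Gpr137b, Trmt9b, a group led by Aplnr (the apelin receptor gene) with olfactory receptor genes, or no whole gene at all in 2 cases. Of the 10 strongest loops only those at Mptx2 and at Ang had a gene end in an anchor.

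By contacts, the largest loop was the one around Cwc22 (chr2:77870001-78030000), a splicing factor gene, and of the 5 with the most contacts the only one with a large difference in contacts. It had 4201 contacts in estrus and 2043 in diestrus, and the expected contacts differed alike, at 364 and 203, so its strengths were 11.5 and 10.1. This interval is known to vary in copy number among mice, and its part in the contacts was not tested. After the Cebpb and Rgs16 loops came one from Trappc9 to Ago2 (chr15:73060001-73190000), the gene of an RNA-silencing nuclease, with 1163 contacts in estrus and 1385 in diestrus. The fifth ended at Rhob (chr12:8320001-8510000), a small GTPase gene, with 1143 contacts in estrus and 1306 in diestrus.

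Between the stages the members differed little, which the choice of loops strong in both libraries in part fixed. The ratios below are therefore a description. The log2 ratio of strength, estrus over diestrus, centred on the median of all same-position loops, had a median of 0.00 (-0.01 to 0.01) over the members and ranged from -0.52 to 0.68. Its standard deviation over members was 0.15, where counting error alone would give 0.12, and over the other same-position loops it was 0.21 against 0.19. Past 1.5-fold, 3 members were stronger in estrus and 0 in diestrus. Over all same-position loops the shares past 1.5-fold were 0.57% stronger in estrus and 0.564% stronger in diestrus, and since the limits used these ratios' own terms, nothing is read from the members' smaller share. A strength of at least 125% of that in the other library was held by 26 members in estrus and 18 in diestrus. The limits bear on these counts in the same way, so nothing is read from them or from their split. The interval of the ratio, which covers counting error only and takes the expected contacts as exact, excluded 0 at 121 members (10.9%), against 11.0% of the other loops.

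The 3 members past 1.5-fold had expected contacts between 2.24 and 15.7. The Ang loop led with a log2 ratio of 0.68 (0.22 to 1.14), at strengths of 40.2 in estrus and 24.9 in diestrus. A loop around Hsbp1 with one anchor in the cadherin gene Cdh13 (chr8:119220001-119390000) had 175 contacts in estrus and 130 in diestrus and a ratio of 0.67 (0.34 to 1.01). A loop around Pcsk1, the gene of a prohormone convertase (chr13:74860001-75210000), had 202 contacts in estrus and 107 in diestrus and a ratio of 0.60 (0.26 to 0.95).

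In the other direction the lowest ratios did not pass 1.5-fold. The loop around Slc2a2 and Tnik (chr3:28160001-28750000) had 229 contacts in estrus and 352 in diestrus and a log2 ratio of -0.52 (-0.76 to -0.27). Slc2a2 encodes a glucose transporter. A loop starting at Tfap2b, a transcription factor gene (chr1:19200001-19980000), had 112 contacts in estrus and 169 in diestrus and a ratio of -0.44 (-0.80 to -0.08). The others among the 5 lowest lay around Aadacl4 and Zfp932 and at Aadat, with ratios from -0.49 to -0.41.

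Anchors of strong kept loops held gene ends less often than those of other loops. A protein-coding gene began or ended inside an anchor at 404 members (36.4%, 33.6 to 39.3), against 47.6% (46.8 to 48.5) of the other same-position loops, and in both anchors at 47 members (4.24%), against 9.84%. By length class the shares were 42.9% against 61.9% up to 100 kb, 42.5% against 52.1% from 110 to 200 kb, 36.7% against 45.02% from 210 to 400 kb and 30.9% against 36.2% from 410 to 800 kb, while from 810 kb to 2 Mb they were 33.1% against 29.2%, and in the 2 longest classes the intervals overlap. The difference was small when the ends were allowed to lie within 10 kb of an anchor, at 66.1% of members (63.2 to 68.9) against 69.1% of the others (68.3 to 69.8). An anchor lay wholly inside a gene at 53.4% of members (50.4 to 56.4), against 51.9% of the others (51.0 to 52.7). In all, 457 autosomal protein-coding genes, 2.21% of 20661, had an end in a strong kept anchor. They were 7.81% of the 5848 genes with an end in an anchor of any same-position loop.

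Between their anchors, strong kept loops more often held exactly 1 gene. No whole protein-coding gene lay inside at 382 members (34.4%), against 47.5% of the other loops, exactly 1 lay inside at 402 (36.2%, 33.4 to 39.2), against 21.9% (21.3 to 22.6), and 5 or more at 58 (5.23%), against 8.70%. Altogether 1491 genes, 7.22% of the autosomal protein-coding genes, lay wholly inside a member. Members are longer, so the shares were also set side by side within length classes. Exactly 1 gene was enclosed at 42.9% of members up to 100 kb, against 20.8% of the others, at 38.9% against 20.9% from 110 to 200 kb, at 35.2% against 19.4% from 210 to 400 kb, and at 37.2% against 23.8% from 410 to 800 kb. From 810 kb to 2 Mb the shares were 29.9% and 30.8%, with overlapping intervals, and the share with no whole gene was then higher in the members, at 36.4% against 25.4%. These shares were set beside each other without a test. Gene density was lower in the members, at 3.55 whole protein-coding genes per Mb of loop against 4.78 in the others. Density falls with length in both sets, and by class it was lower in the members in each class over 100 kb, for example 4.97 against 6.78 from 210 to 400 kb, and higher up to 100 kb, at 10.3 against 9.25.

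The share with no base of any protein-coding gene between the anchors was 2.61% of members (29 loops), against 12.9% of the others. From 110 to 200 kb it was 0.357% of members and 14.6% of the others, while from 810 kb to 2 Mb it was 7.14% and 7.84%. At 218 members (19.7%) neither was a gene end in an anchor nor a whole gene inside, against 24.95% of the others. Such loops included one of 560 kb among the 10 strongest and another with an anchor inside Adamtsl1. A loop lay inside a single gene at 33 members (2.98%), against 5.34% of the others.

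Transcription starts gave a direction as well as a place. Starts came from RefSeq promoters of protein-coding genes on 18 autosomes, leaving out chromosome 18. A start lay in an anchor of 185 members (17.4%, 15.2 to 19.9), against 30.9% (30.2 to 31.7) of the other same-position loops. The members had the smaller share in each class up to 800 kb, for example 18.4% against 42.5% up to 100 kb. In the class from 810 kb to 2 Mb the order was turned, with 25.7% of members (18.9 to 33.4) against 15.7% of the others (13.8 to 17.8).

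Of 201 starts in member anchors, each start counted once per loop, 121 (60.2%, 53.1 to 67.0) pointed into the loop, against 50.9% (49.5 to 52.2) of starts at the other loops. Left anchors gave 57.0% and right anchors 63.8%. The share was highest in the longest classes: 68.9% (53.4 to 81.8) of 45 starts pointed inwards from 410 to 800 kb, against 52.2% at the others, and 72.1% (56.3 to 84.7) of 43 from 810 kb to 2 Mb, against 46.0%. From 210 to 400 kb the share was 50% of 52 starts, against 53.2%. Several starts share an anchor or a loop, while the intervals take starts as independent, and no test was made.

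**Figure D3:**
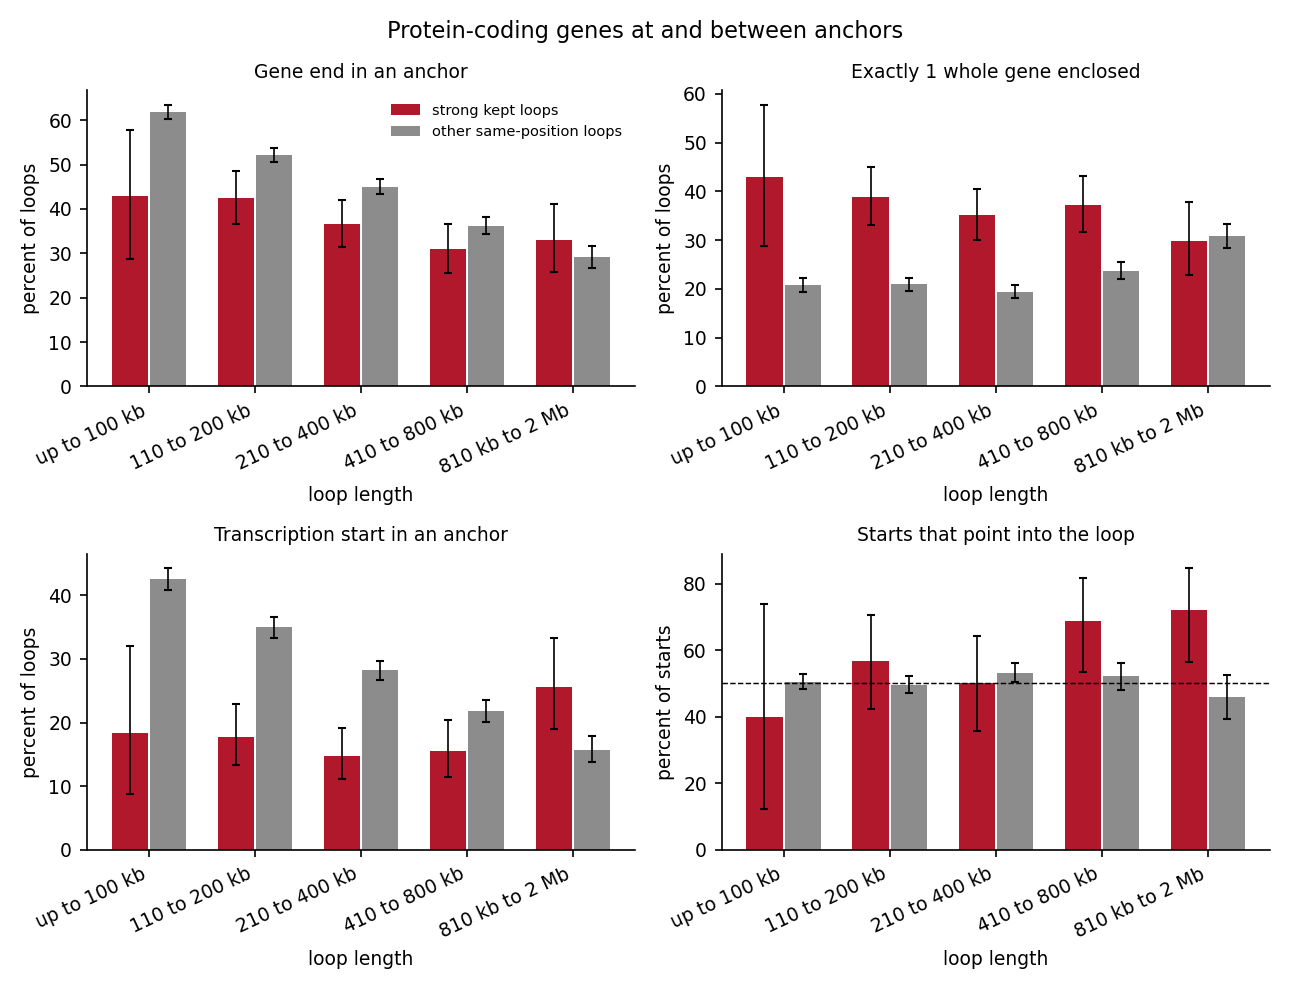
Each panel gives, by length class on the x axis, the percentage of loops (or of starts, lower right) in strong kept loops beside other same-position loops, with 95% Clopper-Pearson intervals. Strong kept loops up to 800 kb more often enclosed exactly 1 gene, and starts at members over 800 kb pointed inwards in 72.1% of cases (dashed line at 50%).

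A 9-letter stretch of the CTCF motif, AGGNGGCAG, was looked for on both strands of the promoters, each 300 bases long. It was found in 12 of 198 promoters in member anchors (6.06%, 3.17 to 10.4), against 5.01% in anchors of the other loops and 3.94% of all promoters. Rgs16, printed above, holds it once on the opposite strand. The promoters in member anchors had a median GC content of 60% (56.3 to 61.3), against 61.0% in the other anchors and 57.0% in all promoters. A match describes the letters in this window and not a bound site.

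Genes of the uterus were followed through 14 lists, of which 251 genes lie on autosomes. At least 1 end of 25 of them (9.96%) lay in an anchor of a strong kept loop, against 2.21% of all autosomal protein-coding genes, and 37 (14.7%) lay wholly inside one, against 7.22%. These lists hold well-studied regulators and were drawn up with earlier results of these data known, so the shares are a description. The 25 genes stood at 27 members with a median length of 330 kb, and 13 of these loops enclosed no whole gene. Against all members, of which 397 had more contacts in estrus and 699 fewer, 5 of the 27 loops had more contacts in estrus and 22 fewer.

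Among genes that answer estrogen, 6 of 30 had an end in a strong kept anchor and none lay inside a member: Ccnd1, Wnt7a, Aqp8, Vegfa, Cebpb and Sox4. The loop at Ccnd1, which encodes cyclin D1 (chr7:144930001-145250000), had 757 contacts in estrus and 879 in diestrus at strengths of 14.98 and 14.70. At Wnt7a (chr6:91280001-91420000) there were 737 contacts in estrus and 633 in diestrus at strengths of 13.0 and 11.4, a log2 ratio of 0.18 (0.02 to 0.33). Wnt7a was the only one of the 27 list-gene loops whose interval lay above 0. Some intervals excluded 0 among all members too, so nothing is read from this. The Vegfa loop (chr17:45730001-46040000), at the gene of the main vascular growth factor, had 573 contacts in estrus and 657 in diestrus. At the water channel gene Aqp8 (chr7:123200001-123470000) the contacts were 349 in estrus and 360 in diestrus. Sox4, a transcription factor gene, stood at the left end of both a 650 kb and an 880 kb loop, the longer with strengths of 12.6 in each library.

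Of 14 autosomal steroid receptor and coregulator genes, Greb1 and Ncoa2 had an end in an anchor, and Nr3c1, the glucocorticoid receptor gene, lay inside a member. Ncoa2, a receptor coactivator gene (chr1:12860001-13140000), was joined to the bin that holds ends of Sulf1 and Slco5a1 by 200 contacts in estrus and 209 in diestrus. Among 32 other nuclear receptor genes 2 had an end in an anchor. The Rxra loop (chr2:27550001-27770000), at the gene of a partner for many nuclear receptors, had 694 contacts in estrus and 745 in diestrus at strengths of 16.4 and 16.7. Nr2f2, which encodes the progesterone-linked stromal regulator COUP-TFII, anchored 2 long loops, each called from 1 pixel in both libraries, as only 5 members were. The 870 kb one (chr7:69490001-70370000) had 302 contacts in estrus and 424 in diestrus, at strengths of 8.06 and 10.3 and a log2 ratio of -0.36 (-0.58 to -0.15). In the 1390 kb one (chr7:68970001-70370000) 196 contacts were counted in estrus and 282 in diestrus, with a ratio of -0.17 (-0.44 to 0.10).

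Of 29 progesterone-responsive and implantation genes, Lif, Hoxa10, Hoxa11 and Nr2f2 had an end in an anchor, and Fst, Foxo1, Msx2, Hbegf and Zbtb16 lay inside members. The Lif loop (chr11:4250001-4430000) ended in the body of Hormad2 and had 632 contacts in estrus and 600 in diestrus at strengths of 9.01 and 9.84. Foxo1, a decidual transcription factor gene, was the only whole gene in a 720 kb loop (chr3:52250001-52980000) with 364 contacts in estrus and 389 in diestrus. Msx2, a homeobox gene of the epithelium, was likewise alone in a 320 kb loop (chr13:53440001-53770000) with 193 contacts in estrus and 169 in diestrus. Fst, the follistatin gene, shared a 920 kb loop (chr13:113870001-114800000) with 1 other gene, at 321 contacts in estrus and 364 in diestrus.

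Patterning genes of the uterus and its ducts had the highest share of any list with over 10 genes, 11 of 45 at anchors and 10 of 45 inside members. For comparison, 32 of the 45 had an end in an anchor of some same-position loop. At the HoxA cluster, Hoxa9 held the right anchor of a 1050 kb loop (chr6:51170001-52230000) with 833 contacts in estrus and 963 in diestrus at strengths of 14.7 and 15.1. A 640 kb loop ended at Hoxa9 too, with 179 contacts in estrus and 181 in diestrus. The anchor with Hoxa10 and Hoxa11 belonged to a 1430 kb loop (chr6:50810001-52250000) with 94 contacts in estrus and 147 in diestrus, at strengths of 10.1 and 11.7. All 3 genes are read into these loops, towards the rest of the cluster and Skap2.

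The HoxD cluster was anchored on both flanks. Hoxd13, at the posterior end, lay in the right anchor of a 600 kb loop (chr2:74060001-74670000) with 295 contacts in estrus and 327 in diestrus. Hoxd9 and Hoxd8 lay in the left anchor of a 430 kb loop in the opposite direction (chr2:74700001-75140000), with 324 contacts in estrus and 512 in diestrus. The expected contacts there were 30.7 and 42.3, so the log2 ratio of strength was -0.21 (-0.41 to -0.00).

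The T-box genes Tbx2 and Tbx3, which pattern mesenchyme, each had an end in an anchor. At Tbx3 (chr5:118870001-119680000) the loop spanned 800 kb without a whole gene and had 706 contacts in estrus and 1032 in diestrus, over 73.2 and 99.2 expected, with strengths of 9.64 and 10.4. The Tbx2 loop (chr11:85840001-86180000) enclosed Tbx4 and had 357 contacts in estrus and 374 in diestrus. Gata4 (chr14:63070001-63200000) had 942 contacts in estrus and 888 in diestrus, and Six2 (chr17:85660001-86070000) had 352 in estrus and 377 in diestrus. Zeb2, a repressor of epithelial genes, began a 1330 kb loop (chr2:45110001-46450000) with 253 contacts in estrus and 324 in diestrus and a log2 ratio of -0.32 (-0.56 to -0.08). The intervals of the log2 ratio lay below 0 at 3 of the 27 loops, those of Nr2f2 (870 kb), Zeb2 and Hoxd9. Such intervals also excluded 0 at a share of all members and of the other loops, given above with the stage ratios. Nothing is therefore read from this count.

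Several patterning genes sat alone inside a loop. Pax2, Tcf21, Tbx3, Eya1 and Foxf1 were each the only whole protein-coding gene in the shortest member around them. So were 16 of the 37 enclosed list genes in all. The matching share of all enclosed genes was not counted, and taking the shortest member favours loops with few genes. The count is therefore a description, and nothing about patterning genes is read from it. The Foxf1 loop (chr8:120820001-121100000), around a mesenchymal forkhead gene, had 229 contacts in estrus and 232 in diestrus at strengths of 16.9 and 13.4. Around Pax2, a transcription factor gene of the urogenital ducts (chr19:44580001-44900000), the loop had 359 contacts in estrus and 335 in diestrus. Eya1 (chr1:13780001-14730000) was framed by a 940 kb loop with 279 contacts in estrus and 247 in diestrus.

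**Figure D4:**
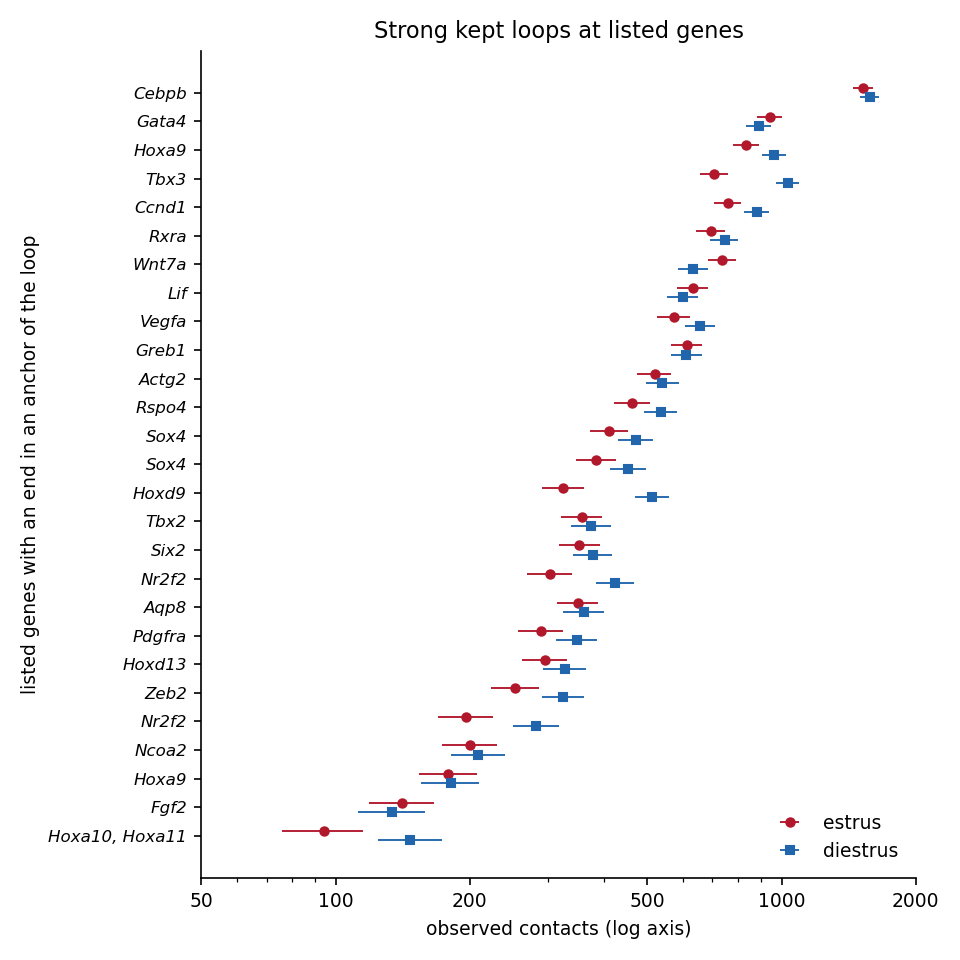
Observed contacts (x axis, log scale) in estrus (circles) and diestrus (squares) at the 27 strong kept loops with an end of a listed gene in an anchor, with exact 95% Poisson intervals. At 9 loops the intervals do not overlap between the libraries, and all of those except Wnt7a had more contacts in diestrus. The contacts are not corrected for the larger total of the diestrus list or for expected contacts. For the log2 ratio of strength, the interval lay below 0 only at Nr2f2 (870 kb), Zeb2 and Hoxd9. Some intervals excluded 0 among all members too, so nothing is read from this count.

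Markers of cell types were followed because whole uterus holds many, beside the share of 2.21% of all genes with an end at an anchor. Of 9 stromal markers Pdgfra and Hoxa11 had an end in an anchor, of 7 smooth muscle markers Actg2, and of 7 epithelial, 5 endothelial and 5 immune markers none. Pdgfra, a growth factor receptor gene of stromal cells (chr5:74310001-75160000), had 289 contacts in estrus and 347 in diestrus. Actg2, the enteric smooth muscle actin gene (chr6:83350001-83520000), had 519 contacts in estrus and 540 in diestrus. Wholly inside members lay 2 of the 9 stromal markers (Col3a1 and Dcn), 2 of the 7 epithelial (Krt8 and Krt18) and 1 of the 5 endothelial (Pecam1). No smooth muscle or immune marker did, and the share of all genes was 7.22%. The keratin genes Krt8 and Krt18 lay together inside an 80 kb loop (chr15:101980001-102070000) with 990 contacts in estrus and 974 in diestrus. In bulk tissue a loop in few cells and a weak loop in many cannot be told apart.

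The remaining lists are read against the shares of all autosomal genes, 2.21% at an anchor and 7.22% enclosed, at which small lists would hold few or no genes. Of 13 ubiquitously expressed genes 0 had an end in a strong kept anchor and 0 lay inside a member, though 5 had an end in an anchor of some same-position loop. Among 16 autosomal genes of the loop machinery itself, cohesin, its loaders and CTCF, 0 stood at an anchor, and Rad21 and Wapl lay inside members. Of 18 hypoxia genes Vegfa was at an anchor (5.56%), and Hif1a, Slc2a1 and Ndrg1 were enclosed. Of 46 morphogens and their antagonists, Fgf2, Wnt7a and Rspo4 were at anchors and 6 were enclosed, among them Fgf10 alone in a 960 kb loop (chr13:118400001-119370000) with 187 contacts in estrus and 201 in diestrus.

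Some gene families were enclosed in blocks. The loop with the most genes held 52, nearly all of them olfactory receptor genes (chr10:129020001-130100000), and had 89 contacts in estrus and 69 in diestrus. In all, 116 of 1104 Olfr genes lay inside members (10.5%), against 7.22% of all genes. Many of these 116 came from the loop with 52 genes, so the share is not read as a trait of the family. Some other families had lower shares than all genes, such as Vmn (17 of 354, 4.80%) and Zfp (6 of 388, 1.55%). Of the 22 clustered Pcdhb genes, which encode cell-surface proteins of neurons, 20 lay inside, through a single 590 kb loop that began at Pcdhb2 and enclosed 43 genes, the second most. Of 23 Mmp genes, matrix proteases, 8 were enclosed, and of 99 Cyp genes 26. Families were grouped by the letters of their symbols and named after their counts were seen, and neighbours in a cluster are not independent. After the Pcdhb2 loop in gene number, a loop on chromosome 8 (chr8:71130001-71860000) enclosed 29 genes that included Bst2 and had 53 contacts in each library.

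Anchors were mostly private to 1 strong kept loop. The 1109 members used 2078 distinct anchors, of which 1949 served 1 member, 118 served 2 and 11 served 3. Of the 129 shared anchors 122 sent their loops to 1 side and 7 to both. At 250 members (22.5%) an anchor was shared with another member. Of all member anchors 72.3% also held another same-position loop, against 41.5% of anchors without a member, and 9.29% had same-position loops on both sides, against 9.05%. An anchor with more same-position loops has more chances to hold a member, so nothing is read from these differences.

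No anchor was used by more than 3 members. Of the 5 such anchors with the most contacts, 3 sent all their loops to 1 side and 2 to both sides. The anchor at Adamts1, a protease gene induced around ovulation, led to 3 loops of 840, 1080 and 1440 kb on its right (first bin chr16:85800001-85810000), all around Adamts5. They had 767, 458 and 608 contacts in estrus and 846, 533 and 715 in diestrus. At Gja1, which encodes connexin 43 of the myometrium and decidua, 3 loops of 630, 810 and 940 kb ran from one bin (chr10:56370001-56380000) across a stretch without whole protein-coding genes. The first had 716 contacts in estrus and 778 in diestrus at strengths of 13.1 and 13.5. A bin inside Gnas (chr2:174310001-174320000), an imprinted gene, began 3 loops of 360, 540 and 590 kb, and bins inside Snx10 and Pdzrn3 each had 2 members to the right and 1 to the left.

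Members also lay within and beside each other. Another member was held inside by 134 members (12.1%), and 142 (12.8%) lay inside another member. The right anchor of 175 members (15.8%) lay within 50 kb of the left anchor of another one. A same-position loop of any strength lay inside 69.0% of members, against 55.7% of the other loops, but within length classes the shares were alike, for example 73.3% against 75.6% from 210 to 400 kb.

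All 19 autosomes held strong kept loops, from 32 on chromosome 19 to 106 on chromosome 1. As a share of the same-position loops of the chromosome they ran from 5.16% (52 of 1007, 3.88 to 6.72) on chromosome 11 to 9.81% (73 of 744, 7.77 to 12.2) on chromosome 13, and chromosome 1 had 9.06%. Per 10 Mb the range was 3.28 on chromosome 4 to 6.27 on chromosome 13, with 4.65 over all autosomes. Across the 19 chromosomes the share had a Spearman rho of -0.61 with protein-coding genes per Mb, a description of 19 points from the same libraries. Members together covered 425.9 of 2384 Mb (17.9%), the most on chromosome 13 (29.2%) and the least on chromosome 4 (12.2%).

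**Figure D5:**
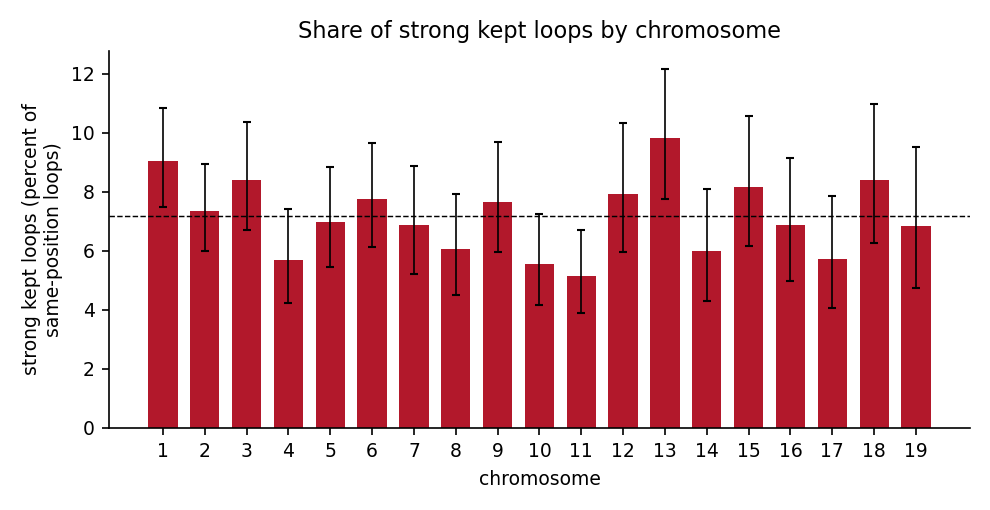
Bars give the percentage of the same-position loops of each autosome that were strong kept loops, with 95% Clopper-Pearson intervals, and the dashed line is the share over all autosomes, 7.19%. Chromosome 13 had the highest share (9.81%) and chromosome 11 the lowest (5.16%), and the intervals of most chromosomes overlap the line.

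Within chromosomes the spread was uneven. Of 254 windows of 10 Mb with a same-position loop, 12 held no member, the median window held 4, and 2 windows held 15. One of these, on chromosome 1 from 80 to 90 Mb, had 15 members among 74 same-position loops, and the other, on chromosome 6 from 50 to 60 Mb, which includes the HoxA cluster, had 15 among 101. The window on chromosome 5 from 30 to 40 Mb held 83 same-position loops and 0 members. Every other window without a member held only 1 to 20 same-position loops, so few members could fall there. The longest stretch without a member was 16.3 Mb (chr4:68850001-85160000). It includes a window with only 19 same-position loops (chr4:70000001-80000000).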

How the data were processed

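Hi-C loops were called in 1 estrus and 1 diestrus library of mouse uterus, grouped by the stage its label states. Juicer and mm10 are named in the submitters' processing notes. For the aligner, tool versions and caller settings: not given in the sources used here. Observed contacts and merged pixels are whole counts made by the authors, per the file headers. Expected contacts of 4 neighbourhoods are a signal from the authors' caller on the same scale, and its q-values were deposited beside them. Positions and radii, of another kind (other), are deposited in bases.

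Loops were joined on identical bins. Strength was observed over donut-expected contacts, and its log2 ratio was centred on the median of all same-position loops (0.01). Genes came from a RefSeq table of GRCm38.p6, the assembly that mm10 names, and 260 of 261 list symbols matched. Coordinates are 1-based. A gene was enclosed where it lay wholly between the inner edges of the anchors. The 95% intervals are Clopper-Pearson (shares), Poisson (contacts, exact), conditional binomial (ratios) and order-statistic (medians). For contacts and ratios they cover counting error only, because PCR copies carry no molecular identifier here. For shares and medians they take loops as independent. None covers the spread between animals.

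Named loops were the 10 strongest, the 5 with most contacts, the 5 longest and shortest, the 5 most used anchors, the 5 largest ratios each way, 3 on each side of the strength limit, the 3 with most genes, and those at list genes. Predicted genes were not named, and 1 of the longest loops is not reported here. Enclosed list genes were named as examples. The members and lists were chosen with earlier results of these data known. Joining and gene assignment were tested on simulated data. Python 3.11.15, pandas 2.3.3, numpy 2.4.6, scipy 1.17.1 and matplotlib 3.10.9 were used. The alternatives tried are given under the closing section. The motif and the transcription starts were added after the lists were seen.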

Additional observations from a re-analysis of the deposited data

How the results depend on the processing

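Of 52 alternative values, those not named here stayed within the interval of the value reported, or within 1.5 times for counts. Strength limits of 6 and 10 gave 2608 and 434 loops, and strength against the highest of the 4 expectations gave 179 loops with a median length of 370 kb. The share with a gene end at an anchor was 66.1% with ends within 10 kb, 77.1% with any base of a gene, 56.4% with all annotated genes and 17.4% with transcription starts alone (without chromosome 18, added after the data were seen). The share enclosing no gene was 2.61% when any base of a gene counted and 4.78% with all annotated genes. A strength of at least 125% of that in the other library was held by 44 members in either direction, against 3 at 1.5-fold. The strength limit bears on both counts, so nothing is read from them. Sharing of anchors was 36.7% with bins within 10 kb. The share of starts pointing into the loop lay between 58.2% and 62.0% in 5 alternatives, all added after the data were seen. Requiring 10 expected contacts in both libraries, another added setting, left 1045 loops and a median length of 300 kb. Of the 12 values that moved, the median length of 370 kb was a change of the result with the choice of expectation. The others moved through the alternative's own definition (another limit, or another way to count genes or anchors). No paired analysis was possible because each stage has 1 library, and no library could be left out. The search for convergent CTCF motifs at anchors was not run, since no genome sequence was used here. Only called loops are listed, so contacts at positions called in 1 library alone could not be compared. At 50 contacts, the lower limit, the exact interval runs from 37.1 to 65.9, so strengths at thin loops are the least certain.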

Other observations

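Strong same-position loops also lay outside the rule. On the autosomes 1109 of 15427 same-position loops up to 2 Mb passed the limits of contacts and strength. A similar share passed on the X chromosome, 32 of 481. The median length of these 32 was 375 kb, with medians of 215 contacts in estrus and 222.5 in diestrus. Their median strengths were 10.04 and 9.92, and 8 enclosed no whole protein-coding gene. The strongest of them, 110 kb long without a whole gene (chrX:76830001-76950000), had 324 contacts in estrus and 334 in diestrus at strengths of 19.2 and 19.4. One of 530 kb around Eda2r, a receptor gene of the ectodysplasin pathway (chrX:96900001-97440000), had 280 contacts in estrus and 299 in diestrus. Another ended at Rtl9 around Ammecr1 (chrX:142820001-143060000), with 456 contacts in estrus and 432 in diestrus.

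Over 2 Mb, 28 autosomal same-position loops and 3 on the X chromosome passed the limits. Their share of all same-position loops over 2 Mb is not given here. The autosomal ones had a median length of 3130 kb, a longest of 159180 kb, and medians of 87.5 contacts in estrus and 85.5 in diestrus. The longest, on chromosome 2 (chr2:22730001-181920000), had 81 contacts in estrus and 70 in diestrus at strengths of 1638 and 1360. These strengths stand over only 0.049 expected contacts in estrus and 0.051 in diestrus. One of 3610 kb on chromosome 17 (chr17:36230001-39850000) had 701 contacts in estrus and 1025 in diestrus, a centred log2 ratio of strength of -0.63. Its expected contacts were only 0.58 in estrus and 0.55 in diestrus. What these very long calls stand for was not tested.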
